A study of Mus musculus with 12 samples.

Results

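The subject of this report was a set of 38 imprinted genes, including the long non-coding RNA H19, followed through sorted cells of the newborn mouse testis after dexamethasone (dex), a synthetic glucocorticoid. The genes were chosen by name, for imprinting documented in mouse, but with earlier results of these data known. Shares of members set beside shares of all genes therefore describe this list only. All 38 were found among the 54532 genes of the table. They fall into 14 loci, of which 7 hold 2 or more members, and 17 members are known to be expressed from the maternal allele, 20 from the paternal allele and 1 (Gnas) from either, depending on the transcript. The reads were counted per gene and not per allele, so no value below says which parental copy was transcribed.

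Testes came from mice carrying Tg(Pou5f1-EGFP)2Mnn, a transgene in which Pou5f1 regulatory sequence lacking the proximal enhancer drives EGFP in germ cells, and every group carried it. Dams received dex at 10 μg per g body weight or saline at E17.5 and E18.5 (days of embryonic development), and the pups received the same agent on postnatal day 0. On postnatal day 1 (PN1) the cells with GFP (germ cells) and those without it (somatic cells) were sorted apart, which gave 4 groups of 3 libraries each, namely germ cells of dex-treated males, germ cells of saline-treated males, and the somatic cells of both. Each replicate pooled testes from independently dosed litters, so the spread between libraries is a spread between pools of animals. The somatic fraction is every live cell without GFP, a mixture of Sertoli, Leydig, peritubular, stromal, endothelial and blood cells.

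Imprinted genes are transcribed from only one parental allele because DNA methylation laid down in the egg or the sperm marks a control region of the locus. Primordial germ cells erase these marks, and in the male germ line the paternal pattern is written anew around birth, the stage sampled here. Many imprinted genes act on growth. Igf2 encodes a fetal growth factor, Igf2r clears it, Cdkn1c and Grb10 restrain proliferation and growth factor signaling, and H19 lies beside Igf2 under the same control region. In the fetal and newborn gonad, Dlk1, H19 and Igf2 are known mainly from somatic lineages.

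The libraries held between 18459692 and 25178477 counts. Levels are given as FPKM (fragments scaled by transcript length and library size, comparable between genes) or CPM (counts scaled by library size and TMM factors, comparable between libraries only), as mean ± SD of 3 libraries. A gene was called when its adjusted p was at most 0.05 in edgeR's quasi-likelihood test across all genes that passed a filter on low counts. The 8 germ cell markers summed to between 2675 and 2865 CPM in the 6 germ cell libraries and to between 6.97 and 9.26 CPM in the 6 somatic libraries. The 8 Sertoli markers summed to between 17.8 and 37.4 CPM in germ cells and to between 2799 and 3381 CPM in somatic cells, so each sort matched its label.

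Most of the 38 genes were lower in germ cells than in somatic cells, though 26 of the 38 stood at 1 FPKM or more in germ cells in saline, against 29 in somatic cells. In saline-treated testes 28 of the 37 members tested were lower in germ cells than in somatic cells. Another 7 were higher and 2 were not called, Asb4 and Snrpn. Of the higher members, Phlda2, Slc22a18, Ascl2 and Rasgrf1 passed the low count filter through the germ cell libraries alone. For these a call of higher was close to given in advance. Among the lower members, Airn and Magel2 passed that filter through the somatic libraries alone, in saline and in dex. A call of lower was likewise close to given for them. In saline 75.7% of the members were lower, where 36.7% of all genes tested were called lower, and 18.9% were higher, where 39.8% of all genes were called higher. The median log2 fold change of the members, germ over somatic, was -1.96, and that of all genes tested was 0.07. A list of other imprinted genes did not share this. Of 34 tested there in saline, 41.2% were lower and 26.5% higher, with a median of 0.12. In dex-treated testes, whose libraries are separate ones, 29 of 37 members were lower, where 35.7% of all genes were, and 7 were higher, where 40.5% of all genes were. Dio3, higher there too, passed the low count filter in dex only with the help of germ cell libraries. All 35 members called in saline were called in the same direction in dex, and the median of the members there was -2.02 against 0.12 for all genes. Members took 0.138% of all counts in germ cells of saline-treated males and 0.947% in somatic cells. In bulk libraries such as these, fewer cells of a type and less RNA per cell cannot be told apart.

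**Figure D1:**
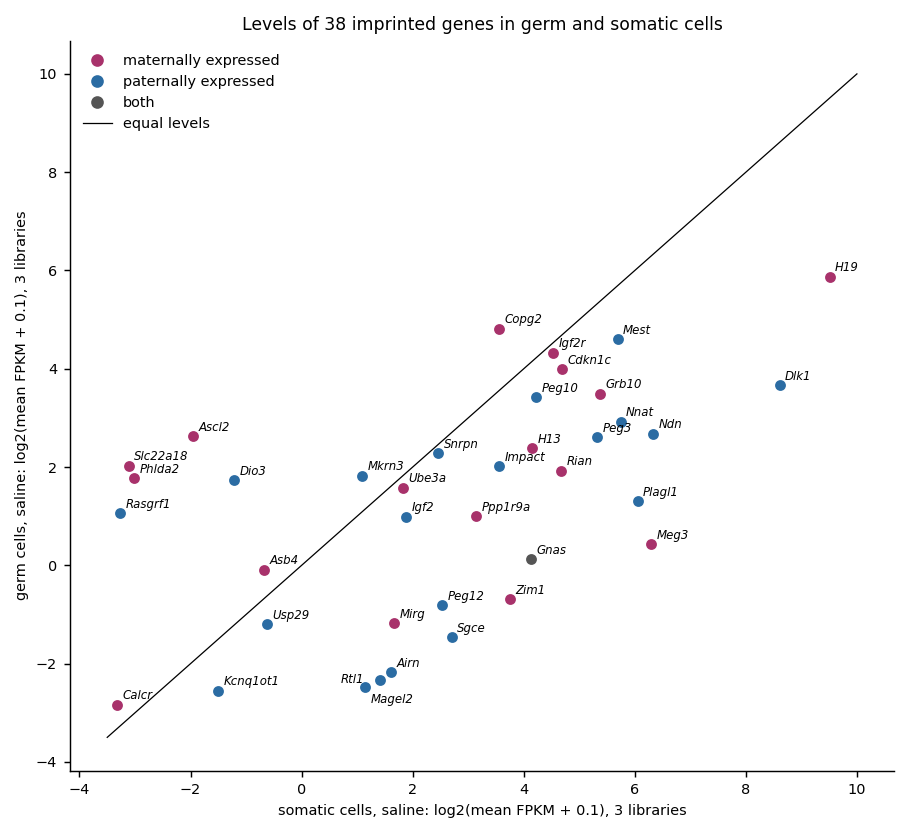
Level of each of the 38 imprinted genes in germ cells (y axis) and somatic cells (x axis) of saline-treated PN1 testes, as log2 of the mean FPKM of 3 libraries plus 0.1, colored by the allele known to be expressed. Most members lie below the line of equal levels, H19 and Dlk1 are the 2 highest in somatic cells, and Rasgrf1, Phlda2, Slc22a18, Ascl2, Dio3 and Copg2 lie well above the line.

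H19 was the most abundant member in all 4 groups. The gene (ENSMUSG00000000031, mm10 chr7:142575529-142578143, minus strand) gives a non-coding RNA that also holds the precursor of miR-675, whose mature products are shown because H19 is the member on which most of the results turn. Small RNAs were not measured here. Both sequences are from RefSeq (GRCm38.p6), with the seed, bases 2 to 8, in capitals.
mmu-miR-675-5p: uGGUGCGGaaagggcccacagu
mmu-miR-675-3p: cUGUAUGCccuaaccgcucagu
They map to chr7:142577112-142577133 and chr7:142577078-142577099 on the minus strand.

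In somatic cells H19 stood at 729 ± 79.2 FPKM (SD, n = 3) in saline and 1744 ± 196 FPKM in dex. In germ cells it stood at 58.7 ± 9.15 and 58.6 ± 10.7 FPKM. By library, somatic H19 was 1636, 1941 and 2047 CPM in saline and 4493, 4746 and 3855 CPM in dex, while germ cell H19 was 139.7, 126 and 169 CPM in saline and 137, 172 and 121 CPM in dex. Each somatic library exceeded every germ cell library, and the log2 fold change, germ over somatic, was -3.76 ± 0.12 (± SE, edgeR adjusted p = 8.9e-11) in saline and -5.00 ± 0.15 in dex (adjusted p = 2.73e-11).

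The other members of the H19 domain on distal chromosome 7 did not share one pattern. Igf2, the growth factor gene beside H19, stood at 1.89 ± 0.264 and 2.1 ± 0.23 FPKM in germ cells (saline and dex) and at 3.59 ± 0.825 and 5.68 ± 1.13 FPKM in somatic cells. Of the Igf2 exon bases, 64.55% also belong to another annotated gene, chiefly Gm49394 on the same strand, which was listed at 0 counts in every library, and reads in these bases may be missing from the Igf2 count, which was not tested. Its log2 fold change, germ over somatic, was -1.05 ± 0.20 (edgeR adjusted p = 0.000429) in saline and -1.54 ± 0.17 (adjusted p = 4.53e-06) in dex. Cdkn1c, the cyclin-dependent kinase inhibitor p57, stood at 15.8 ± 1.97 and 16.8 ± 2.14 FPKM in germ cells and at 25.7 ± 4.56 and 53.9 ± 4.86 FPKM in somatic cells. Its log2 fold change, germ over somatic, was -0.82 ± 0.15 (adjusted p = 0.00031) in saline and -1.79 ± 0.11 (adjusted p = 1.98e-08) in dex, and 30.65% of its exon bases are shared with an opposite-strand gene. Kcnq1ot1, the long RNA that silences neighboring genes in cis, is a very long transcript and was low per length, with 0.0703 ± 0.0145 and 0.0787 ± 0.0359 FPKM in germ cells and 0.254 ± 0.0856 and 0.293 ± 0.0431 FPKM in somatic cells, a log2 fold change of -1.96 ± 0.26 (adjusted p = 1.99e-05) in saline and -2.01 ± 0.30 (adjusted p = 5.29e-05) in dex.

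The 3 remaining members of the domain were germ cell transcripts. Slc22a18, a member of a transporter family, stood at 3.98 ± 0.686 FPKM in germ cells of saline-treated males and 5.47 ± 0.829 FPKM in those of dex-treated males. In somatic cells it had 2 counts in the 3 saline libraries together and 0.162 ± 0.141 FPKM in dex. By library the germ cell values were 5.75, 6.62 and 7.997 CPM in saline and 10.6, 7.82 and 9.32 CPM in dex. The somatic values were 0, 0.0866 and 0 CPM in saline and 0, 0.396 and 0.445 CPM in dex, all below every germ cell library. The ratio of germ to somatic level in saline was 218 with a 95% exact counting interval from 59.9 to 1803 (adjusted p = 3e-07), an interval that covers counting error only. In dex its log2 fold change was 4.91 ± 0.55 (adjusted p = 4.86e-06). Phlda2, a pleckstrin homology domain gene that limits growth of the placenta, stood at 3.33 ± 0.869 and 7.88 ± 1.26 FPKM in germ cells. Its 3 somatic saline libraries held 2 counts in all, for a ratio of 122 with an interval from 33.3 to 1010 (adjusted p = 4.88e-06), and its 3 somatic dex libraries held 0, so that germ cells were at least 172-fold higher against a floor of 3 counts over the group (adjusted p = 2.92e-07). Ascl2, a basic helix-loop-helix transcription factor of the trophoblast, stood at 6.09 ± 0.509 and 5.49 ± 1.07 FPKM in germ cells and 0.158 ± 0.274 and 0.229 ± 0.239 FPKM in somatic cells. The difference was 5.20 ± 0.74 (adjusted p = 3.95e-05) in saline and 4.42 ± 0.60 (adjusted p = 2.72e-05) in dex. All 16 of its somatic saline counts came from replicate 1, and the other 2 libraries held 0. Without that library the fitted change was 10.67 in place of 5.20, a value set by the prior count and no bound, so the size in saline rests on 1 library.

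In the Dlk1-Dio3 locus on chromosome 12, 5 of 6 members were lower in germ cells and 1, Dio3, was higher. Dlk1, a transmembrane protein of the Notch ligand family that marks progenitor cells, was the second most abundant member in somatic cells at 389.8 ± 27.3 FPKM in saline and 713 ± 111 FPKM in dex, beside 12.5 ± 2.01 and 13.1 ± 1.41 FPKM in germ cells. Its log2 fold change, germ over somatic, was -5.08 ± 0.12 in saline and -5.87 ± 0.14 in dex, with adjusted p of 8.33e-12 and 4.93e-12. The long RNA Meg3 had the largest difference of the locus. Its libraries read 20.01, 23.8 and 23.8 CPM in germ cells of saline-treated males and 20.5, 18.7 and 13.1 CPM in those of dex-treated males. In somatic cells they read 1764, 1143 and 1506 CPM in saline and 1763, 1786 and 2519 CPM in dex, with the second saline library lowest.

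Meg3 stood at 1.24 ± 0.124 and 0.97 ± 0.214 FPKM in germ cells and 78.2 ± 18.8 and 109.8 ± 22.7 FPKM in somatic cells, a log2 fold change of -6.10 ± 0.18 in saline and -6.93 ± 0.21 in dex. Rian and Mirg, non-coding RNAs that host small nucleolar RNAs and miRNAs and lie downstream of Meg3, followed at lower levels. Rian stood at 3.7 ± 0.369 and 3.53 ± 0.716 FPKM in germ cells and 25.5 ± 1.98 and 32.7 ± 3.13 FPKM in somatic cells. Mirg stood at 0.343 ± 0.0825 and 0.303 ± 0.126 FPKM in germ cells and 3.07 ± 0.154 and 4.25 ± 0.863 FPKM in somatic cells. Their differences were -2.90 ± 0.09 and -3.27 ± 0.21 in saline and -3.32 ± 0.14 and -3.89 ± 0.27 in dex. Rtl1, a gene derived from a retrotransposon and needed by fetal capillaries of the placenta, stood at 0.0994 ± 0.0406 and 0.141 ± 0.0511 FPKM in germ cells and 2.57 ± 0.645 and 6.9 ± 1.72 FPKM in somatic cells, a difference of -4.77 ± 0.32 in saline and -5.70 ± 0.28 in dex. Dio3, the deiodinase that inactivates thyroid hormone, ran the other way, with 3.23 ± 0.795 and 5.42 ± 1.3 FPKM in germ cells and 0.332 ± 0.128 and 0.234 ± 0.136 FPKM in somatic cells. It was higher in germ cells by 3.15 ± 0.38 (adjusted p = 8.87e-06) in saline and 4.39 ± 0.42 (adjusted p = 1.15e-06) in dex, and the adjusted p of Meg3, Rian, Mirg and Rtl1 was at most 5.65e-08 in either treatment. The somatic dex libraries held 3, 12 and 14 counts of Dio3. In dex it therefore passed the low count filter only with the help of germ cell libraries, which favored a call of higher.

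In the Peg3 domain on proximal chromosome 7 all 3 members were lower in germ cells. Peg3, a zinc finger protein, stood at 5.998 ± 0.416 and 7.61 ± 1.22 FPKM in germ cells and 40.03 ± 4.29 and 53 ± 5.42 FPKM in somatic cells. Usp29, a deubiquitinase gene that starts beside Peg3 on the other strand, stood at 0.335 ± 0.0272 and 0.424 ± 0.0382 FPKM in germ cells and 0.55 ± 0.102 and 0.744 ± 0.0692 FPKM in somatic cells. Other genes overlap 14.8% of the Usp29 exon bases. Zim1, the maternally expressed zinc finger gene of the domain, had the largest difference, with 0.522 ± 0.0984 and 0.646 ± 0.29 FPKM in germ cells and 13.3 ± 0.344 and 21.5 ± 0.998 FPKM in somatic cells. The log2 fold changes were -2.86 ± 0.11, -0.83 ± 0.21 and -4.80 ± 0.14 for Peg3, Usp29 and Zim1 in saline (adjusted p = 2.5e-10, 0.0033 and 3.07e-11) and -2.91 ± 0.12, -0.92 ± 0.19 and -5.17 ± 0.22 in dex (adjusted p = 4.89e-10, 0.000874 and 4.86e-10).

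In the Peg10-Sgce cluster on chromosome 6, 3 members were lower in germ cells, Asb4 was not called and Calcr had too few counts to test. Peg10, a retrotransposon-derived gene needed for the placenta, was highest, with 71.2, 63.5 and 78.4 CPM in germ cells of saline-treated males, 84.8, 70.9 and 81.8 CPM in germ cells of dex-treated males, 132, 131 and 126 CPM in somatic cells in saline and 135, 127 and 122 CPM in somatic cells in dex. Its FPKM were 10.6 ± 1.16 and 12 ± 1.12 in germ cells and 18.6 ± 0.637 and 18.9 ± 1.02 in somatic cells. Sgce, epsilon-sarcoglycan, differed most, with 2.23, 2.88 and 3.32 CPM in germ cells of saline-treated males and 3.43, 3.45 and 3.11 CPM in those of dex-treated males. Its somatic libraries read 69.6, 76.8 and 67.9 CPM in saline and 88.4, 86.7 and 83.1 CPM in dex, far above the germ cell values. Sgce stood at 0.264 ± 0.0526 and 0.316 ± 0.0185 FPKM in germ cells and 6.44 ± 0.22 and 7.97 ± 0.276 FPKM in somatic cells.

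Ppp1r9a, a phosphatase regulator that binds actin, stood at 1.9 ± 0.167 and 1.82 ± 0.165 FPKM in germ cells and 8.7 ± 0.0531 and 7.23 ± 0.566 FPKM in somatic cells. The log2 fold changes of Peg10, Sgce and Ppp1r9a were -0.93 ± 0.09, -4.74 ± 0.16 and -2.32 ± 0.09 in saline and -0.77 ± 0.09, -4.76 ± 0.13 and -2.10 ± 0.11 in dex, with an adjusted p of at most 9.32e-06. Asb4, an ankyrin repeat gene, stood at 0.839 ± 0.173 and 1.1 ± 0.217 FPKM in germ cells and 0.524 ± 0.22 and 1.05 ± 0.4996 FPKM in somatic cells, and its groups overlapped (adjusted p = 0.199 in saline and 0.911 in dex). Calcr, the calcitonin receptor, had 10 counts over the germ cell libraries of saline-treated males, 18 over those of dex-treated males and 0 in all 6 somatic libraries, which puts germ cells at least 3.48-fold higher in saline and 5.13-fold higher in dex against the floor of 3 counts over the group. Its FPKM were 0.0404 ± 0.015 and 0.065 ± 0.0281 in germ cells and 0 in somatic cells, and it stayed under the filter in all comparisons.

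Of the neighbors Mest and Copg2 on chromosome 6, the paternally expressed gene was lower and the maternally expressed gene higher in germ cells. Mest, a hydrolase of mesodermal tissue, read 101.46, 90.9 and 94.2 CPM in germ cells of saline-treated males, 96.6, 90.3 and 96.4 CPM in germ cells of dex-treated males, 211, 245 and 183 CPM in somatic cells in saline and 198, 226 and 195 CPM in somatic cells in dex. It stood at 24.1 ± 1.35 and 24.1 ± 0.962 FPKM in germ cells and 51.5 ± 6.13 and 51.4 ± 4.69 FPKM in somatic cells, a log2 fold change of -1.22 ± 0.11 in saline and -1.20 ± 0.09 in dex. Copg2, a coatomer subunit of vesicle transport, stood at 28.1 ± 0.568 and 28.3 ± 1.93 FPKM in germ cells and 11.6 ± 0.974 and 11.7 ± 0.239 FPKM in somatic cells, a log2 fold change of 1.15 ± 0.09 in saline and 1.17 ± 0.08 in dex. The adjusted p of both genes was at most 4.68e-07 in either treatment. The 2 genes end in each other on opposite strands, and 23.12% of the Mest exon bases and 17.81% of the Copg2 exon bases overlap another gene.

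In the Snrpn-Ube3a region of chromosome 7, syntenic with the human Prader-Willi and Angelman region, Ndn, Magel2, Peg12 and Ube3a were lower in germ cells in saline and Mkrn3 was higher. Ndn, necdin, a growth suppressor of the MAGE family, was the most abundant, with 24.8, 23.8 and 21.4 CPM in germ cells of saline-treated males, 20.6, 20.2 and 25.2 CPM in germ cells of dex-treated males, 288, 351 and 297 CPM in somatic cells in saline and 332, 390.0 and 329 CPM in somatic cells in dex. It stood at 6.3 ± 0.439 and 6.003 ± 0.756 FPKM in germ cells and 80.7 ± 6.0 and 93.2 ± 10.1 FPKM in somatic cells. Magel2, another MAGE gene, was all but absent from germ cells. It passed the low count filter through the somatic libraries alone, so a call of lower was close to given in advance. Its germ cell libraries read 0.757, 0.213 and 0.146 CPM in saline and 0.47, 0.19 and 0.0956 CPM in dex, and its somatic libraries 9.95, 12.3 and 8.53 CPM and 10.6, 8.8 and 13.8 CPM. Its FPKM were 0.08001 ± 0.0718 and 0.0548 ± 0.0425 in germ cells and 2.11 ± 0.327 and 2.35 ± 0.519 in somatic cells. Peg12 stood at 0.469 ± 0.183 and 0.355 ± 0.0252 FPKM in germ cells and 5.67 ± 0.778 and 5.79 ± 0.663 FPKM in somatic cells.

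The log2 fold changes of Ndn, Magel2 and Peg12 were -3.80 ± 0.10, -4.78 ± 0.45 and -3.72 ± 0.29 in saline and -4.07 ± 0.11, -5.51 ± 0.45 and -4.12 ± 0.25 in dex, with an adjusted p of at most 1.08e-06. Ube3a, a ubiquitin ligase imprinted chiefly in neurons, differed little between the populations, at 2.89 ± 0.116 and 3.12 ± 0.332 FPKM in germ cells and 3.44 ± 0.0558 and 3.62 ± 0.172 FPKM in somatic cells. Its difference was -0.37 ± 0.09 (adjusted p = 0.00249) in saline and -0.32 ± 0.10 (adjusted p = 0.0124) in dex, and the dex call was lost in 8 of 14 alternatives, among them DESeq2 (adjusted p = 0.108), library totals (0.219) and either germ dex replicate 2 (0.0673) or 3 (0.0576) left out. The saline call was lost in 2 of 14, both by limma (adjusted p = 0.106 and 0.0988). Opposite-strand genes overlap 27.27% of the Ube3a exon bases. Mkrn3, a zinc finger ubiquitin ligase that holds back puberty, stood at 3.45 ± 0.484 and 3.79 ± 0.335 FPKM in germ cells and 2.03 ± 0.512 and 2.18 ± 0.365 FPKM in somatic cells, a difference of 0.65 ± 0.24 (adjusted p = 0.0291) in saline and 0.69 ± 0.23 (adjusted p = 0.0168) in dex. The saline call of Mkrn3 was lost without germ saline replicate 1 (adjusted p = 0.0612), 2 (0.108) or 3 (0.0651) or somatic saline replicate 2 (0.0831). Snrpn, a small nuclear ribonucleoprotein gene, stood at 4.74 ± 0.89 and 3.95 ± 0.668 FPKM in germ cells and 5.41 ± 0.606 and 5.72 ± 1.13 FPKM in somatic cells. It was not called in saline (-0.31 ± 0.20, adjusted p = 0.16) and was called lower in germ cells in dex (-0.64 ± 0.22, adjusted p = 0.0194), a call lost in 4 of 14 alternatives, namely without germ dex replicate 2 (adjusted p = 0.0866) or somatic dex replicate 2 (0.0724), by DESeq2 (0.0512) and by library totals (0.0739). Of its exon bases 34.14% belong to another gene as well.

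At Igf2r-Airn on chromosome 17 the coding gene and its antisense RNA parted. Igf2r, the receptor that removes IGF2, read 179, 204 and 177 CPM in germ cells of saline-treated males, 202, 213 and 200.4 CPM in germ cells of dex-treated males, 209, 243 and 219.7 CPM in somatic cells in saline and 235, 273 and 238 CPM in somatic cells in dex. It stood at 19.99 ± 1.6 and 22.2 ± 0.7002 FPKM in germ cells and 23 ± 1.01 and 26.3 ± 2.48 FPKM in somatic cells, a log2 fold change of -0.33 ± 0.09 (adjusted p = 0.00415) in saline and -0.35 ± 0.08 (adjusted p = 0.00172) in dex, where the call was lost by library totals (-0.17, adjusted p = 0.0655). Airn, the paternal non-coding RNA that silences Igf2r on that allele, read 0.757, 0.373 and 0.195 CPM in germ cells of saline-treated males and 0.517, 0.038 and 0.334 CPM in those of dex-treated males. In somatic cells Airn read 9.8, 10.9 and 12.5 CPM in saline and 10.6, 13 and 12 CPM in dex, clear of the germ cell libraries. Airn passed the low count filter through the somatic libraries alone, so a call of lower was close to given in advance. It stood at 0.122 ± 0.0792 and 0.0831 ± 0.0678 FPKM in germ cells and 2.94 ± 0.381 and 3.25 ± 0.355 FPKM in somatic cells, a log2 fold change of -4.66 ± 0.38 (adjusted p = 2.92e-07) in saline and -5.44 ± 0.49 (adjusted p = 5.87e-07) in dex.

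Of the 7 members that stand alone at their locus, 6 were lower in germ cells. Plagl1, a zinc finger transcription factor that slows the cell cycle, stood at 2.38 ± 0.192 and 1.99 ± 0.202 FPKM in germ cells and 66.2 ± 2.57 and 74.3 ± 9.7 FPKM in somatic cells. Nnat, neuronatin, stood at 7.51 ± 1.09 and 7.1 ± 0.295 FPKM in germ cells and 53.5 ± 4.34 and 46.7 ± 6.55 FPKM in somatic cells. Grb10, an adaptor that dampens insulin and IGF signaling, stood at 11.2 ± 2.34 and 15.3 ± 1.22 FPKM in germ cells and 41.3 ± 3.5 and 49.6 ± 5.73 FPKM in somatic cells. The log2 fold changes of Plagl1, Nnat and Grb10 were -4.92 ± 0.09, -2.96 ± 0.13 and -2.01 ± 0.13 in saline and -5.33 ± 0.13, -2.83 ± 0.13 and -1.81 ± 0.10 in dex. Gnas, which encodes the stimulatory G protein subunit, stood at 0.993 ± 0.0857 and 0.747 ± 0.131 FPKM in germ cells and 17.46 ± 2.2 and 13.5 ± 2.7 FPKM in somatic cells. Opposite-strand genes overlap 21.96% of the Gnas exon bases. H13, a signal peptide peptidase, stood at 5.12 ± 0.37 and 4.8 ± 0.254 FPKM in germ cells and 17.6 ± 1.86 and 18 ± 0.394 FPKM in somatic cells. Impact, a regulator of translation under amino acid stress, stood at 3.95 ± 0.478 and 2.84 ± 0.093 FPKM in germ cells and 11.7 ± 0.272 and 12.4 ± 1.89 FPKM in somatic cells. Their log2 fold changes were -4.26 ± 0.13, -1.90 ± 0.10 and -1.69 ± 0.13 in saline and -4.27 ± 0.17, -2.02 ± 0.08 and -2.23 ± 0.15 in dex, and the adjusted p of these 6 genes was at most 1.7e-07 in either treatment.

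Rasgrf1, a guanine nucleotide exchange factor for Ras, was the remaining one and a germ cell transcript, at 1.98 ± 0.277 FPKM in germ cells of saline-treated males and 2.9 ± 0.338 FPKM in those of dex-treated males. The somatic saline libraries held 1 count each, for a ratio of germ to somatic level of 473 with a 95% exact counting interval from 161 to 2295 (adjusted p = 3.27e-10). The somatic dex libraries held 0 counts, so that germ cells were at least 631-fold higher in dex (adjusted p = 2.14e-09). Genes with such bounds lie above the median of the members also at their bound or lower counting limit, so that median does not depend on their fitted values.

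Low germ cell values of somatic members are set here beside those of the somatic marker lists. In saline the sums of these lists in germ cells came to 1.06% (Sertoli, 8 genes) and 2.16% (peritubular and stromal, 9 genes) of their sums in somatic cells. The percents were 6.47% (Leydig, 6 genes), 10.3% (macrophage, 5 genes) and 21.7% (endothelial, 5 genes) for the other lists. Single markers ranged widely within a list, from 0.334% to 70.8% among the peritubular and stromal genes and from 0.707% to 6.71% among the Sertoli genes. The range was 1.33% to 41.7% among the macrophage genes and 10.4% to 158% among the endothelial genes. Pecam1 of the endothelial list was higher in germ cells (24.5 ± 1.53 CPM) than in somatic cells (15.5 ± 1.69 CPM) in saline. The endothelial percent is therefore no measure of what the sort let through. The 28 lower members stood at a median of 13.7% of the somatic level, from 1.53% for Meg3 to 83.4% for Igf2r. Of these, 19 were above the Leydig percent. The other 9 were at or below it, namely Meg3, Dlk1, Plagl1, Magel2, Rtl1, Zim1, Sgce, Airn and Gnas. Only 1 (Meg3) was at or below the peritubular and stromal percent, and 0 were below the Sertoli percent. Single Leydig markers ranged from 1.40% to 18.1% (Star), with a median of 3.02%, so the group of 9 depends on the list chosen. H19 was at 7.72%, Igf2 at 50.2% and Cdkn1c at 59.0%. The part of carried-over somatic RNA in the germ cell values was not tested.

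**Figure D2:**
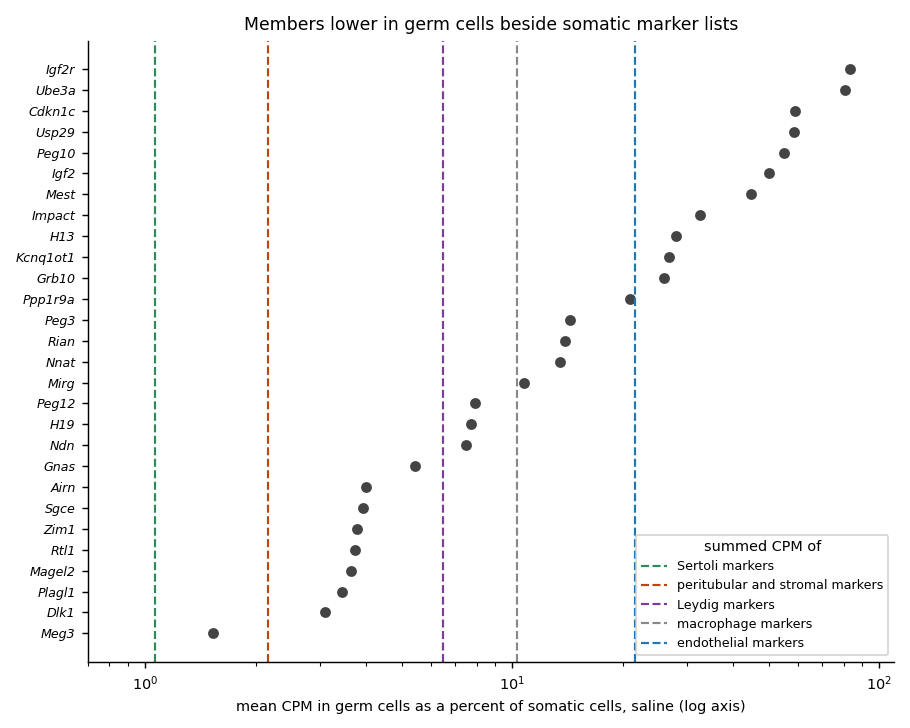
Mean CPM in germ cells as a percent of the mean in somatic cells (log axis), saline, for the 28 members called lower in germ cells, with dashed lines at the same percent for the summed CPM of somatic marker lists. Meg3 lies lowest at 1.53%, H19 at 7.72% lies between the Leydig and macrophage lines, and Igf2r and Ube3a lie highest. Each line is the sum of a list whose single markers ranged widely, and Pecam1 of the endothelial list was higher in germ cells.

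After dex a group of imprinted genes was higher in the somatic cells. Of 33 members tested, 8 rose, 24.2% of the members where 2.74% of all genes tested were called higher, and 0 were called lower by edgeR (2 at an unadjusted p under 0.05, Gnas and Ppp1r9a, and 1 called lower by DESeq2, Gnas). Scaled by library totals in place of TMM, 6 members were called higher and 1 lower. The risers came from 3 loci, namely H19, Igf2 and Cdkn1c from the H19 domain, Dlk1, Rtl1 and Rian from Dlk1-Dio3, and Peg3 and Zim1 from the Peg3 domain. Both parental classes were among them, with 4 maternally expressed genes of 13 tested (H19, Cdkn1c, Rian and Zim1) and 4 paternally expressed genes of 19 tested (Igf2, Dlk1, Rtl1 and Peg3). The median log2 fold change over the 33 members was 0.19, against -0.01 for all genes tested, and 28 of the 33 lay above 0. In 10 members, 30.3%, all dex libraries exceeded all saline libraries, where 9.19% of all genes tested did so, and in 1 (Ppp1r9a), 3.03%, all dex libraries were lower, where 12.3% of all genes were.

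**Figure D3:**
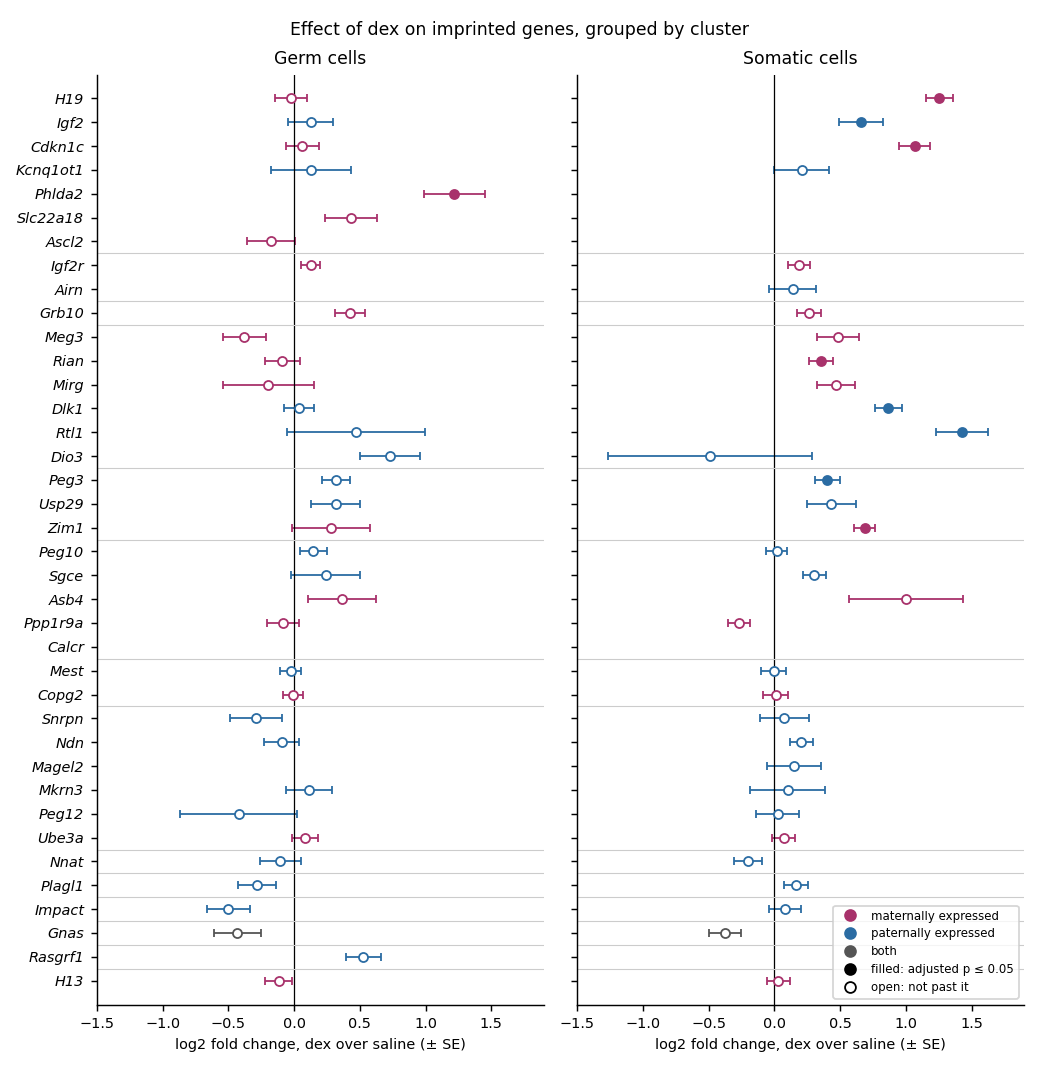
Log2 fold change of dex over saline (± SE, edgeR) for each member tested in germ cells (left) and somatic cells (right), ordered by locus with lines between loci, 3 libraries against 3. Filled points passed an adjusted p of 0.05, which 8 somatic members did, all to the right of 0, and in germ cells Phlda2 alone.

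H19 went from 1636, 1941 and 2047 CPM in the 3 saline libraries to 4493, 4746 and 3855 CPM in the 3 dex libraries, with no overlap. The log2 fold change was 1.25 ± 0.10 (edgeR adjusted p = 3.4e-06), and H19 rose from 0.183% to 0.419% of all counts of a library. Cdkn1c went from 51.1, 67.9 and 45.6 CPM in saline to 102, 111 and 123 CPM in dex, also without overlap (1.07 ± 0.12, adjusted p = 8.02e-05). Igf2 went from 18, 28.2 and 18.6 CPM in saline to 32.1, 39.8 and 27.3 CPM in dex, and here the second saline library lay above the third dex library (0.66 ± 0.17, adjusted p = 0.0404). The Igf2 call was lost without somatic dex replicate 1 (adjusted p = 0.0805) or 2 (0.202) and without somatic saline replicate 1 (0.175) or 3 (0.182). Kcnq1ot1, the only other member of the domain with enough somatic counts to test, read 27.9, 15.7 and 29.9 CPM in saline and 24.6, 32 and 26.7 CPM in dex (adjusted p = 0.699).

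Dlk1 read 2387, 2209.7 and 2307 CPM in saline and 3584, 4760.1 and 3953 CPM in dex, with every dex library above every saline library (0.87 ± 0.10, adjusted p = 0.000165). Rtl1 read 17.9, 12.8 and 20.2 CPM in saline and 32.6, 46.9 and 54.5 CPM in dex, the largest change of the 8 (1.43 ± 0.20, adjusted p = 0.000502). Rian read 485, 460.4 and 508 CPM in saline and 550.2, 602 and 668 CPM in dex, a smaller change with no overlap (0.36 ± 0.09, adjusted p = 0.0392). Its call was lost without somatic dex replicate 2 (adjusted p = 0.0905) or 3 (0.171) and without any of the somatic saline replicates 1 (0.115), 2 (0.107) or 3 (0.0687). Meg3 and Mirg, which are transcribed in the same direction as Rian from the maternal allele, were not called, with log2 fold changes of 0.49 ± 0.16 (adjusted p = 0.117) and 0.47 ± 0.15 (adjusted p = 0.0998). Dio3 was low in somatic cells, between 0.165 and 1.00 CPM, and was not called (-0.49 ± 0.78, adjusted p = 0.826).

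In the Peg3 domain Zim1 read 109.7, 119.97 and 108 CPM in saline and 168, 179 and 182 CPM in dex, with no overlap and little spread (0.69 ± 0.08, adjusted p = 9.59e-05). Peg3 read 539.7, 644 and 492 CPM in saline and 674, 795 and 686 CPM in dex, where the lowest dex library exceeded the highest saline library (0.40 ± 0.09, adjusted p = 0.0232). The Peg3 call was lost without somatic dex replicate 2 (adjusted p = 0.0962) or somatic saline replicate 1 (0.104) or 3 (0.132). Usp29 read 11.7, 8.58 and 10.8 CPM in saline and 13.8, 12.3 and 15 CPM in dex and was not called (0.43 ± 0.19, adjusted p = 0.266).

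**Figure D4:**
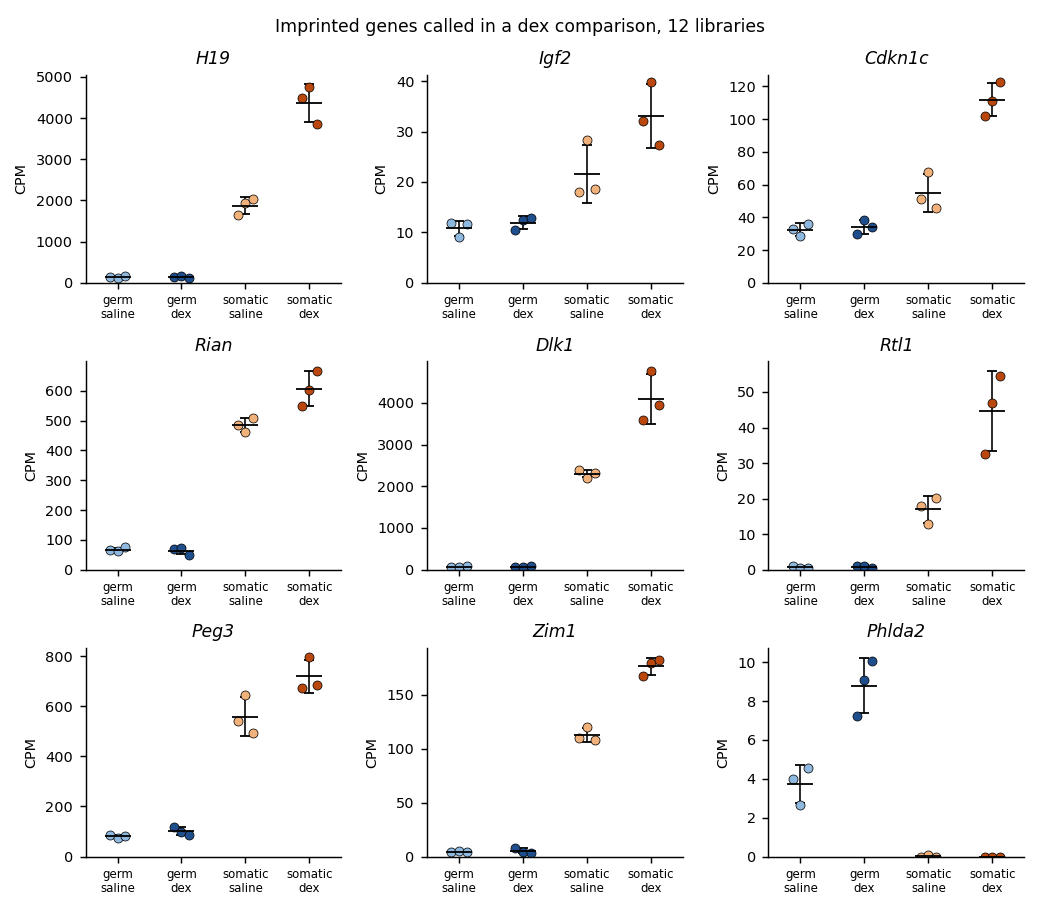
CPM in each of the 12 libraries (points) with mean and SD (bars) for the 8 members called in somatic cells after dex and for Phlda2, called in germ cells. Each panel has its own linear axis from 0. The somatic dex libraries lie above the somatic saline libraries in all 8 but Igf2, where the groups overlap, and Phlda2 is detected almost only in germ cells.

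The other 25 members tested in somatic cells were not called. Sgce (0.30 ± 0.09, adjusted p = 0.0649), Ppp1r9a (-0.27 ± 0.08, adjusted p = 0.0956) and Gnas (-0.38 ± 0.12, adjusted p = 0.117) were nearest to the threshold outside the 3 loci. The 6 members of the Snrpn-Ube3a region had a median log2 fold change of 0.09, from 0.02 to 0.20, and Mest and Copg2 stood at -0.01 ± 0.09 and 0.01 ± 0.10. Phlda2, Slc22a18, Ascl2, Calcr and Rasgrf1 had too few somatic counts to test.

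Of the somatic marker lists, the peritubular and stromal one rose along with the imprinted genes, with a median log2 fold change of 0.44. The medians of the others were 0.06 (Sertoli), -0.37 (Leydig), -0.49 (endothelial), -1.26 (macrophage) and -1.04 (erythroid). The 9 peritubular and stromal markers summed to between 4837 and 6377 CPM in saline and between 7864 and 9001 CPM in dex, with no overlap, and 4 of the 9 rose (Col1a1, Acta2, Pdgfra and Des). Of the other markers, Lyz2 and Csf1r (macrophage), Star (Leydig) and the hemoglobin genes Hbb-bs and Hbb-bt (erythroid) fell, with log2 fold changes of -1.87, -1.75, -0.69, -1.21 and -1.29. The 5 macrophage markers summed to between 37.9 and 64.7 CPM in saline and between 16.2 and 22.6 CPM in dex, the 6 Leydig markers to between 119 and 199 CPM and between 84.3 and 171 CPM, and the 8 Sertoli markers to between 3001 and 3177 CPM and between 2799 and 3381 CPM. The 6 erythroid markers summed to between 248 and 389 CPM in saline and between 82.7 and 292 CPM in dex, and the 5 endothelial markers, of which 0 were called by edgeR (3 at an unadjusted p under 0.05), to between 233 and 274 CPM and between 239 and 312 CPM. Set against the stromal sum of the same library, which went up 1.54-fold, the risers divided. H19 went from 30.4, 30.4 and 42.3% of the stromal sum in saline to 57.1, 52.7 and 44.4% in dex, and Cdkn1c from 0.948, 1.07 and 0.943% to 1.30, 1.23 and 1.41%, both without overlap. Rtl1 was 1.64-fold higher on this scale and Dlk1 1.14-fold, with overlapping libraries, Zim1 and Igf2 stood at 1.01-fold and 1.00-fold, and Peg3 and Rian at 0.835-fold and 0.800-fold. Col1a1, which encodes a collagen I chain, made up 57.7% of the sum in saline and 64.3% in dex, and the sum of the other 8 markers went up 1.30-fold. Against those 8, a sum chosen after the data were seen, H19 stood at 1.78-fold, Cdkn1c at 1.59-fold, Rtl1 at 2.00-fold, Dlk1 at 1.36-fold and Zim1 at 1.21-fold, each without overlap. Igf2 stood at 1.19-fold, Peg3 at 0.993-fold and Rian at 0.960-fold on that scale, with overlap. The part of cell composition in the rise of these 8 genes was not tested.

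**Figure D5:**
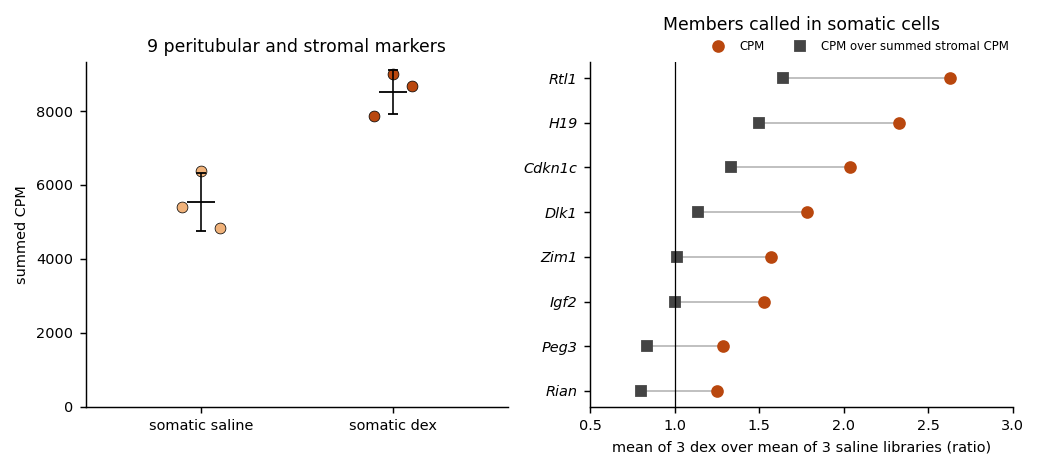
Left, summed CPM of 9 peritubular and stromal markers in each somatic library (points) with mean and SD (bars). Right, mean of the 3 dex libraries over the mean of the 3 saline libraries for the 8 members called in somatic cells, as CPM (circles) and as CPM over the stromal sum of the same library (squares). The sum went up 1.54-fold, and on the second scale Rtl1, H19 and Cdkn1c stay furthest above 1 while Peg3 and Rian lie below it, with Col1a1 making up 57.7% of the sum in saline.

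Of the 8 genes, the sequences upstream of Dlk1, Rian and Zim1 are shown, since they rose together and RefSeq (GRCm38.p6) gives each one start site. That of Peg3 is left out because it runs into Usp29. Windows of 300 bases around the start, 250 of them before it, were found for 32 of the 38 members, and there were none for H19, Cdkn1c, Rtl1, Sgce, Peg10 and Impact. The windows were searched on both strands for AGAACA and its reverse complement TGTTCT, the half-site of the glucocorticoid receptor element. It occurred in 8 of the 48 member windows, 16.7%, and in 18.97% of all 32851 windows, and the full palindrome with 3 bases between the half-sites occurred in none of the member windows and in 3 of all windows. The stretches below are those upstream of the first annotated exon, with half-sites in capitals.
Dlk1: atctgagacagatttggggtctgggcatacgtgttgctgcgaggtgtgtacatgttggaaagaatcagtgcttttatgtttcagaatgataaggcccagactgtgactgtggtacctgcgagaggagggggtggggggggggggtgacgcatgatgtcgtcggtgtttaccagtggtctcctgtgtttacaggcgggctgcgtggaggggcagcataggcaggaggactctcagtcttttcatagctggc
Rian: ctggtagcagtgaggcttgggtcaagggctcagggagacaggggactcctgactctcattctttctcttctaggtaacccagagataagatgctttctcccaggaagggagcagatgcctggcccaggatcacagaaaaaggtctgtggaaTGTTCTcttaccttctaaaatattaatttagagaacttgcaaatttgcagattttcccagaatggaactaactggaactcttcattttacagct
Zim1: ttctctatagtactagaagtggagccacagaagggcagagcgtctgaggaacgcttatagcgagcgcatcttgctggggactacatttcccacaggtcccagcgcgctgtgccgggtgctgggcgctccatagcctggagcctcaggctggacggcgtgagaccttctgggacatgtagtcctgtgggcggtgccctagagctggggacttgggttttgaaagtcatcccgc
They lie at chr12:109452573-109452822 (plus strand), chr12:109603695-109603939 (plus strand) and chr7:6696451-6696682 (minus strand). The Rian stretch holds 1 half-site, and the stretches of Dlk1 and Zim1 hold none. That half-site begins 99 bases before the RefSeq start site that set the window. The printed Rian stretch ends a few bases short of this site, at the first annotated exon. The count of CG dinucleotides was 8 in the Dlk1 stretch, 12 in that of Zim1 and 0 in that of Rian.

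In germ cells, 1 of 35 members tested was called after dex. This was Phlda2, higher in dex, and at 2.86% of the members beside 0.739% of all genes called higher, a single gene is not a result about the set. By edgeR and by DESeq2 0 members were called lower (3 at an unadjusted p under 0.05 in each), beside 0.507% of all genes. Phlda2 read 4.01, 2.67 and 4.53 CPM in saline and 7.24, 9.07 and 10.03 CPM in dex, with every dex library above every saline library (1.22 ± 0.23, edgeR adjusted p = 0.0208). The call was lost without germ dex replicate 3 (adjusted p = 0.0856) and without germ saline replicate 1 (0.0837) or 2 (0.0930). H19, Cdkn1c and Igf2 were not called in germ cells, with H19 at -0.02 ± 0.12 (adjusted p = 0.957), Cdkn1c at 0.06 ± 0.13 (0.878) and Igf2 at 0.13 ± 0.17 (0.79).

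By library, germ cell Cdkn1c read 32.6, 28.4 and 36.1 CPM in saline and 29.6, 38.4 and 34 CPM in dex, and germ cell Igf2 read 11.8, 9.12 and 11.7 CPM and 10.4, 12.4 and 12.9 CPM. Both overlapped between treatments, as H19 did. Germ cell Dlk1 read 69.3, 61.1 and 83 CPM in saline and 66.1, 72.7 and 82 CPM in dex, germ cell Peg3 85.6, 74.5 and 80.5 CPM and 118, 96.6 and 87.3 CPM, and germ cell Rian 64.9, 63.1 and 74.9 CPM and 69.2, 73.6 and 49.2 CPM. Of these 3 genes, Peg3 had no overlap between treatments but was not called (0.32 ± 0.11, adjusted p = 0.167). Zim1 and Rtl1 were low in germ cells, with 3.79, 5.17 and 3.75 CPM in saline and 7.8, 4.37 and 3.39 CPM in dex for Zim1 and 0.936, 0.48 and 0.488 CPM and 1.13, 1.02 and 0.526 CPM for Rtl1.

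In 6 members, 17.1%, all germ cell dex libraries exceeded all saline libraries, where 10.8% of all genes tested did so. Besides Phlda2 and Peg3 these were Rasgrf1 (0.53 ± 0.13, adjusted p = 0.0715), Grb10 (0.43 ± 0.12, 0.0869), Dio3 (0.73 ± 0.23, 0.136) and Usp29 (0.32 ± 0.19, 0.472), none of them called. In 3 members, 8.57%, all dex libraries were below all saline libraries, where 9.30% of all genes tested were. These were Impact (-0.50 ± 0.16, adjusted p = 0.149), Gnas (-0.43 ± 0.18, 0.274) and Plagl1 (-0.28 ± 0.14, 0.383), also not called. The median log2 fold change over the 35 members was 0.06 and that of all genes tested was -0.003, with 19 of the 35 above 0. Airn, Calcr and Magel2 were under the filter.

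The difference between the populations was tested directly, as the dex effect in germ cells minus that in somatic cells over all 12 libraries. Of 37 members tested, 3 were called, H19, Cdkn1c and Dlk1, and in all 3 the dex effect was lower in germ cells. That is 8.11% of the members, where 0.414% of all genes tested were called in that direction. The difference was -1.24 ± 0.18 for H19 (edgeR adjusted p = 0.00527), -0.97 ± 0.20 for Cdkn1c (adjusted p = 0.0315) and -0.79 ± 0.16 for Dlk1 (adjusted p = 0.0306). H19 was called whichever library was left out. Cdkn1c lost its call without any of germ dex replicates 1 (adjusted p = 0.0709) and 3 (0.05405), germ saline replicates 1 (0.0649) and 3 (0.0647), somatic dex replicates 2 (0.0614) and 3 (0.0764) or somatic saline replicates 1 (0.0505) and 3 (0.0674). Dlk1 lost its call without any of germ dex replicates 1 (0.0858) and 2 (0.0626), germ saline replicates 1 (0.0728) and 3 (0.0736), somatic dex replicate 2 (0.0618) or somatic saline replicates 2 (0.0613) and 3 (0.0624). Of the other genes that rose in somatic cells, the difference was -0.49 ± 0.27 for Igf2 (0.471), -0.93 ± 0.48 for Rtl1 (0.423), -0.41 ± 0.17 for Rian (0.302), -0.37 ± 0.28 for Zim1 (0.631) and -0.04 ± 0.16 for Peg3 (0.99), none of them called, and their effects in the 2 populations were not shown to differ. The stromal gene Col1a1 was called in the same direction in this contrast (-0.87 ± 0.18, adjusted p = 0.0282).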

How the data were processed

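The members and gene lists were chosen with earlier results of these data known. Per the study's methods and the submitters' processing notes, the authors aligned polyA-selected paired-end reads to mm10 with HISAT2 2.0.5, counted them per gene with featureCounts 1.5.0-p3 and deposited raw counts and FPKM per library, which were used here. The authors' comparison columns (fold changes and p-values from DESeq2 1.20.0) were not used. The strand setting of the counting is not given in the sources used here, and reads shared with overlapping genes may be missing. Counts were scaled by TMM and tested with edgeR 4.0.16 (filterByExpr with a minimum count of 10, quasi-likelihood F test, two-sided, Benjamini-Hochberg over all genes tested), fitted pairwise on 6 libraries or, for the difference of effects, on all 12. The method was tested on simulated counts in which few genes changed. That setting is unlike the germ against somatic comparisons, where most genes tested were called. Alternatives were DESeq2 1.42.0, other scalings and filters, limma 3.58.1 on log2(FPKM + 0.1) or log2(FPKM + 1), a replicate block and leaving out each library. Library totals set the precision, and 3 counts in 1 library corresponded to between 0.114 and 0.165 CPM. No replicate pair agreed within counting noise (chi-square per degree of freedom between 6.13 and 20.3). Germ and somatic libraries of the same replicate number in saline deviated together (r = 0.115, 0.187 and 0.156 over genes). In dex r was -0.0098, -0.048 and 0.0048. Libraries of different numbers were not compared, so whether the numbers pair samples is not settled. The main fits did not use pairing. All 38 members were named, with values by library for those called after dex, for H19, Igf2 and Cdkn1c, and in each locus of 2 or more members for the one highest in FPKM and the one with the largest germ against somatic change in saline. Exon overlaps were read from GENCODE M21, whose coordinates matched 37 of 38 members.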

Additional observations from a re-analysis of the deposited data

Results flagged for a closer look

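For 3 imprinted genes the effect of dex differed between germ cells and somatic cells by a test of the difference itself. The log2 fold change in germ cells minus that in somatic cells was -1.24 for H19 (SE 0.18, edgeR adjusted p = 0.00527), -0.97 for Cdkn1c (SE 0.20, adjusted p = 0.0315) and -0.79 for Dlk1 (SE 0.16, adjusted p = 0.0306). In all 3 genes each somatic dex library exceeded each somatic saline library, and the germ cell libraries of both treatments overlapped. H19 kept its call whichever of the 12 libraries was left out, while Cdkn1c lost it in 8 and Dlk1 in 7 of these 12 fits. The somatic fraction is a mixture of cell types, and its peritubular and stromal marker sum went up 1.54-fold after dex. Col1a1 of that list was called in this contrast as well (-0.87, SE 0.18, edgeR adjusted p = 0.0282). Over the stromal sum, H19 and Cdkn1c stayed higher in dex without overlap, while Dlk1 stood at 1.14-fold with overlapping libraries. The parts of cell composition and of carried-over somatic RNA in these differences were not tested.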

How the results depend on the processing

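The count of members called between germ and somatic cells, both directions together, stayed within 1.5 times under all alternatives. In dex 26 members were lower by library totals and 27 by DESeq2, against 29. The count of higher members did not stay so. With at least 10 counts in every library, 30 members were tested, and 3 were higher in germ cells in saline and 2 in dex, against 7 in each. After dex in germ cells, where 1 member was called by edgeR, 3 were called by DESeq2, 5 without a filter on low counts, 0 by limma with either pseudocount (7 at an unadjusted p under 0.05 in each) and 0 when fitted over all 12 libraries (8 unadjusted), and between 0 and 3 with 1 library left out. In somatic cells 5 were called by limma with either pseudocount and 5 when fitted over all 12 libraries, against 8, and between 5 and 8 with 1 library left out. H19, Cdkn1c, Dlk1, Rtl1 and Zim1 were called in somatic cells under all alternatives run. For the difference of effects 1 was called by limma with the pseudocount 0.1, against 3, and between 1 and 3 with 1 library left out. By limma with the pseudocount 1, 3 were called, but 1 of them had the higher dex effect in germ cells. Dlk1 was not called there (limma adjusted p = 0.077). The uncalled germ cell value of H19 changed sign when scaled by library totals (0.000758) and ranged from -0.17 to 0.10 with 1 library left out, and that of Cdkn1c from -0.035 to 0.15. With the replicate number as a block, 0 members were called in germ cells after dex (8 unadjusted, Phlda2 adjusted p = 0.0574) and 9 in somatic cells, Meg3 being added (adjusted p = 0.0356), while 35, 36 and 3 were called in the other comparisons, as without it. Deviations of dex and saline libraries with the same number had r = 0.15, -0.25 and -0.16 in germ cells and between -0.02 and 0.01 in somatic cells, so there they share only a number, and the cause of these changes was not tested. Over all genes, calls after dex in germ cells numbered 231 by edgeR, 675 by DESeq2, 767 without a filter, 6 and 12 by limma, 65 with the block, 142 over all 12 libraries and 49 to 265 with 1 library left out. In somatic cells they numbered 655, 1061 without a filter, 251 and 281 by limma and 354 to 547 with 1 library left out, with 459 higher and 196 lower by TMM and 379 higher and 329 lower by library totals. For the difference of effects they numbered 170, 620 by DESeq2, 706 without a filter, 262 with at least 10 counts in every library, 57 by limma with the pseudocount 0.1, 104 with the block and 79 to 172 with 1 library left out. Library totals moved the median germ over somatic change of all genes from 0.07 to 0.21 in saline and from 0.12 to 0.30 in dex. Low germ cell values of Airn, Magel2 and Rtl1, under 1.2 CPM, limit what could be seen in them.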

Other observations

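Of 42 other imprinted genes, chosen as a list beside the 38, 41 were found in the table by name. In saline 14 of 34 tested were lower in germ cells (41.2%, beside 36.7% of all genes) and 9 were higher (26.5%, beside 39.8%), with a median log2 fold change, germ over somatic, of 0.12. In dex 15 of 34 were lower (44.1%, beside 35.7%) and 9 higher (26.5%, beside 40.5%), with a median of -0.04.

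Of these other genes, 35 were tested after dex in germ cells and 31 in somatic cells, with median log2 fold changes of 0.13 and 0.05. In germ cells 1 was called higher (2.86%, beside 0.739% of all genes) and in somatic cells 4 (12.9%, beside 2.74%). Slc38a4, an amino acid transporter expressed from the paternal allele, was called in both populations. It went from 41.6 ± 1.81 CPM (SD, n = 3) in saline to 62.2 ± 7.51 CPM in dex in germ cells (0.57 ± 0.11, SE, edgeR adjusted p = 0.0187). In somatic cells it stood at 35.8 ± 6.86 CPM in saline and 55.8 ± 6.56 CPM in dex (0.68 ± 0.13, adjusted p = 0.00712). Called in somatic cells as well were Dcn, the matrix proteoglycan decorin (570.2 ± 98.5 to 913 ± 111 CPM, adjusted p = 0.000986), Cd81, a tetraspanin (414 ± 12 to 517 ± 17.1 CPM, adjusted p = 0.0144), and Nap1l5, a nucleosome assembly protein gene (1.68 ± 0.315 to 6.01 ± 2.06 CPM, adjusted p = 0.00898). With 1 of 6 libraries left out in turn, the call was lost in 3 fits for Slc38a4 in germ cells (adjusted p up to 0.0809), in 1 for Slc38a4 in somatic cells (0.0504), in 2 for Cd81 (0.0737), in 1 for Nap1l5 (0.0566) and in 0 for Dcn (0.0106).

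Of 22 genes of the imprint machinery, which write, keep or remove the methylation of control regions, 3 passed the threshold in germ cells after dex, all lower, 13.6% of the list beside 0.507% of all genes. Dnmt1, the maintenance methyltransferase, went from 862 ± 23.4 CPM to 713 ± 36.8 CPM (-0.28 ± 0.06, adjusted p = 0.0436), Uhrf1, which recruits it to newly copied DNA, from 604 ± 11.5 to 499.9 ± 32 CPM (-0.28 ± 0.06, adjusted p = 0.0495), and Dnmt3b, a de novo methyltransferase, from 129 ± 10.6 to 102 ± 2.1 CPM (-0.35 ± 0.08, adjusted p = 0.0495). Their adjusted p lay just under 0.05. Under alternatives read for these genes after the data were seen, Dnmt1 lost its call in 11 of 15, and Uhrf1 and Dnmt3b each in 12 of 15. With the replicate block their adjusted p were 0.126, 0.135 and 0.119. With 1 library left out, Dnmt1 and Dnmt3b lost the call in 6 of 6 fits (adjusted p up to 0.208 and 0.254) and Uhrf1 in 5 of 6 (up to 0.212). The median over the 22 genes was -0.04. In somatic cells 0 of 19 tested were called by edgeR, with 3 at an unadjusted p under 0.05, and the difference of effects was called for 0 of 22, with 3 at an unadjusted p under 0.05.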
